A study of Mus musculus with 4 samples.

Results

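The interferon response and viral RNA sensing genes were a set of 35 mouse genes, chosen by symbol from the 49997 genes counted in each library, and covered the sensing of foreign nucleic acid, the type I interferon receptor, the transcription factors behind it and the genes they switch on. Counts came from bulk poly(A) RNA of explants cut from the AGM (aorta, gonad and mesonephros), the part of the embryo in which the first haematopoietic stem cells arise. The AGMs were taken from C57BL/6J embryos and kept for 48 hours on membrane filters at the surface of MyeloCult medium with hydrocortisone, a glucocorticoid that both groups received. There were 2 untreated libraries and 2 libraries from explants kept with 5 µM CCCP, a protonophore that dissipates the membrane potential of mitochondria. The comparison asked how transcripts of the explant differ when mitochondrial activity is disturbed. The labels give the embryos as E10.5 and E11.5 in the growth protocol and as E10.5 alone in the design, and speak of c-kit+ stem cells in the design but of explant RNA in the extraction protocol. They do not say how many embryos went into a library, or whether replicates came from separate litters, so p-values measure the spread between these samples, which may be technical.

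A cell that meets viral RNA binds it with helicases in the cytosol (Ifih1, Dhx58) or with a Toll-like receptor in endosomes (Tlr3). The helicases pass the signal to Mavs, an adaptor anchored in the outer membrane of mitochondria, and Irf3 and Irf7 then switch on interferon genes. Secreted interferon binds Ifnar1 and Ifnar2 on the same or a neighbouring cell, and a complex that holds Stat2 and Irf9 enters the nucleus and binds interferon-stimulated response elements in promoters. Interferon signalling has also been tied to the emergence of blood stem cells in the embryo.

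No gene of the set passed the test between CCCP and untreated explants. With edgeR's quasi-likelihood test and Benjamini-Hochberg adjustment over 19837 genes, 0 of the 32 set genes tested had an adjusted p under 0.05, where the share over all genes was 0%. DESeq2 called 0 of the 32 (all genes 2.99%) and gave no adjusted p for Ifit3, and limma-trend called 0. At an unadjusted p under 0.05, 0 set genes were higher with CCCP (all genes 5.45%) and 3 were lower (all genes 9.16%), namely Cxcl10, Parp14 and Ifit2. The median log2 fold change (CCCP over untreated) of the set was 0.046, against -0.0077 over all genes, with 18 genes of the set above 0 and 14 below. The CCCP libraries were both higher than either untreated library for 7 genes (all genes 24%) and both lower for 5 genes (all genes 24.8%), together 37.5% of the set, less than the 48.8% over all genes. Without CCCP replicate 1 the median of the set was -0.29 and without untreated replicate 2 it was -0.046. With all 4 libraries it was also below 0 in 3 other fits, at -0.011 with no scaling factor, -0.0066 with a trend with exon length removed and -0.069 with that trend removed and the replicate number as a block, so its sign was not stable.

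Of the 35 genes, 33 reached 10 counts in at least 1 library. Zbp1, a sensor of left-handed nucleic acid, was set aside with 8 and 0 counts in untreated replicates 1 and 2 and 4 and 6 counts with CCCP. Trex1, a DNA exonuclease that limits sensing of the cell's own DNA, had 0 counts in every library, where a count of 3 equals 0.0614 to 0.0803 CPM (counts scaled to library size, as defined below). Of its exon bases, 99.9% also belong to the readthrough gene Atrip-trex1 on the same strand, and reads touching both genes were not counted, so this 0 cannot be read as a level. Mx1, an antiviral GTPase, had 19 and 2 counts without treatment and 6 and 0 counts with CCCP, passed the minimum of the set but not the filter on low counts, and was not tested.

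The promoters were searched for motifs of interferon signalling, which a set chosen for its part in that signalling can hold more often by that choice. The core of the interferon-stimulated response element, searched as a pair of GAAA blocks with any 2 bases between them on both strands from 250 bases upstream to 50 bases downstream of each gene start, was found in 10 of the 29 set genes with a promoter sequence (34.5%). Over all 27025 genes with such a sequence the share was 3.99%, and over the tested genes 3.53%. The gamma-activated site, searched as TTCNNNGAA (a palindrome, so both strands read alike), was found in 8 of 29 (27.6%), against 9.55% of all genes. In Bst2 a match to each motif overlapped. Sequences are RefSeq, build GRCm38.p6, and are printed 5′ to 3′ on the strand of the gene up to the base before its start, with matches to the response element core in capitals. Shown are 4 effectors with a match whose levels were higher in both replicate 1 than in both replicate 2 libraries (Isg15 at chr4:156200819-156200968, minus strand; Ifit1 at chr19:34640739-34640888, plus strand; Rsad2 at chr12:26456453-26456602, minus strand; Bst2 at chr8:71537473-71537622, minus strand), then Cxcl10 (chr5:92348890-92349139, minus strand), the gene with the smallest p of the set, and Ifi44 (chr3:151749911-151750060, minus strand), which held no exact match in this window.
Isg15: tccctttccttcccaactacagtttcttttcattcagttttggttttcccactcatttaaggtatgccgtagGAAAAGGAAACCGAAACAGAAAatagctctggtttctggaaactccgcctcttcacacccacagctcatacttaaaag
Ifit1: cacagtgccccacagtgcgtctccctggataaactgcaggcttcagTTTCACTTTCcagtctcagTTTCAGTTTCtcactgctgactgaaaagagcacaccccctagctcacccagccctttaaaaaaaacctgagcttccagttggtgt
Rsad2: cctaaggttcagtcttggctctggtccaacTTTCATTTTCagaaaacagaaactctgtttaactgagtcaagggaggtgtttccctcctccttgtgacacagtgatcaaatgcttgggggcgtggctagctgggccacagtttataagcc
Bst2: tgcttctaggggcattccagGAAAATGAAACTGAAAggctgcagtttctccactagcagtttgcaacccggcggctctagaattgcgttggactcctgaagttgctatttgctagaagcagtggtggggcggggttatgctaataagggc
Cxcl10: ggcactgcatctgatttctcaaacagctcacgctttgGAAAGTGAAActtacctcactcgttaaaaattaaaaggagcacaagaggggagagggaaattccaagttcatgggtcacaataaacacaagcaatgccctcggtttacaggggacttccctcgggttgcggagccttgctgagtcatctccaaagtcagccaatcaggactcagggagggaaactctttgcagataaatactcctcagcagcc
Ifi44: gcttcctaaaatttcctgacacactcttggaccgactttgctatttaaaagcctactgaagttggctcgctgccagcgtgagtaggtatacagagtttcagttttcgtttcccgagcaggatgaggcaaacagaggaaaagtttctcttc
Isg15 held 3 overlapping matches that began 78, 72 and 66 bases upstream of the start. The Ifit1 promoter held 2, at 104 and 85 bases, which read as TTTC blocks because they lie on the opposite strand. Rsad2 held 1 at 120 bases, Bst2 had 2 at 130 and 124 bases, and the match in Cxcl10 lay at 213 bases. The remaining genes with a match were Ifit3, Stat2, Ifih1, B2m and Ifitm3. By role, the element was found in 6 of 11 effectors with a sequence and in 1 of 5 transcription factors.

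Levels below are CPM, the counts of a gene scaled to library size with TMM factors, given for replicates 1 and 2 of each group. The libraries held between 37360968 and 48827826 counts, and replicate 1 was the deeper library in each group. Compared per kilobase of exon over all libraries, the highest of the set were B2m (61.5 CPM per kilobase), Ifitm3 (29.6), Ifnar1 (20.4), Bst2 (18.1) and Irf3 (15.2). The lowest among the genes tested was Ifit3 (0.117). The receptor chain, the latent factor Irf3 and the editor Adar (12.2) thus had higher levels per kilobase than Isg15 (2.05), Cxcl10 (0.612) or Ifit1 (0.423).

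**Figure D1:**
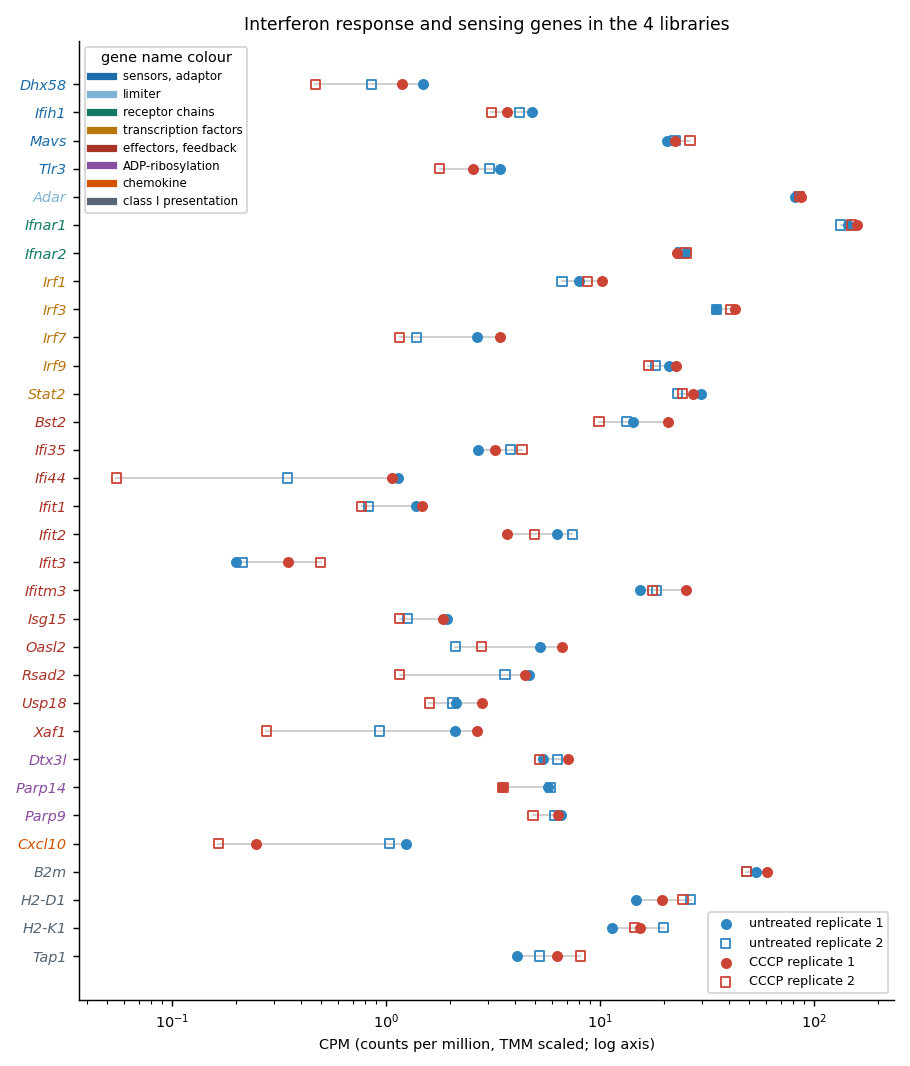
Level of each tested gene of the set in CPM (horizontal, log axis) in the 4 libraries, with filled circles for replicate 1, open squares for replicate 2, blue for untreated and red for CCCP. Adar, Ifnar1 and Ifnar2 show 4 nearly coincident symbols, and Irf3 shows both red symbols a little right of both blue ones. Cxcl10 and Parp14 show both red symbols left of both blue ones, and Ifi44, Xaf1, Irf7 and Oasl2 show both circles right of both squares.

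The tested sensors of the set lay lower with CCCP and the adaptor slightly higher, none of them past the test. Ifih1 (MDA5), the helicase that binds long double-stranded RNA, measured 4.83 and 4.20 CPM in untreated explants and 3.67 and 3.11 CPM with CCCP. The groups did not overlap, and the log2 fold change was -0.41 (SE 0.270), with an adjusted p of 0.507 by edgeR. Tlr3, the endosomal receptor for double-stranded RNA, measured 3.42 and 3.05 CPM against 2.55 and 1.79 CPM, again without overlap, with a log2 fold change of -0.57 (SE 0.329, edgeR adjusted p = 0.461) that was -0.33 without CCCP replicate 2. Dhx58 (LGP2), a helicase that tunes the other sensors and cannot signal alone, measured 1.50 and 0.856 CPM in untreated explants and 1.19 and 0.469 CPM with CCCP. In Dhx58 both replicate 1 libraries lay above both replicate 2 libraries, the log2 fold change of -0.49 had an SE of 0.592, and it was 0.025 without CCCP replicate 2. Mavs measured 20.7 and 22.5 CPM against 22.6 and 26.4 CPM. For this mitochondrial adaptor the groups were separated by a gap narrower than the spread within either group, with a log2 fold change of 0.18 (SE 0.158, edgeR adjusted p = 0.615) that was 0.072 without CCCP replicate 2 and 0.29 without CCCP replicate 1. The median of these 4 genes was -0.45, and it was -0.15 without untreated replicate 1 and -0.13 without CCCP replicate 2. Adar, the enzyme that edits adenosine to inosine in double-stranded RNA and so keeps the cell's own RNA from being sensed, measured 81.6 and 85.1 CPM in untreated explants and 87.7 and 86.0 CPM with CCCP. All 4 libraries lay close together, and the log2 fold change was 0.059 (SE 0.108, edgeR adjusted p = 0.823), or 0.0021 with no scaling factor and 0.22 with the length trend removed.

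Both chains of the type I interferon receptor were detected at similar levels in each group. Ifnar1 measured 145 and 134 CPM in untreated explants and 160 and 150 CPM with CCCP, a log2 fold change of 0.15 (SE 0.116, edgeR adjusted p = 0.557) that was 0.32 with the length trend removed. The CCCP libraries lay above the untreated ones, by less than the spread within each group. Ifnar2 measured 25.4 and 24.0 CPM against 22.9 and 25.3 CPM, with overlapping groups and a log2 fold change of -0.036 (SE 0.145) that was 0.015 without untreated replicate 1 and 0.039 without CCCP replicate 1. The median of the 2 chains, 0.059, became -0.00031 when libraries were scaled by total counts alone, and 0.12 without untreated replicate 1.

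Among the transcription factors, Irf3 and Irf1 were higher in both CCCP libraries and the factors downstream of the receptor showed no difference beyond the spread. Irf3, the factor that is present before infection and is activated by phosphorylation, measured 35.1 and 35 CPM in untreated explants and 42.7 and 40.9 CPM with CCCP. The untreated values nearly coincided and both CCCP values lay above them, with a log2 fold change of 0.25 (SE 0.118, unadjusted p = 0.075, edgeR adjusted p = 0.38). Irf1, an inducible activator of interferon and class I genes, measured 7.97 and 6.66 CPM against 10.2 and 8.77 CPM, also without overlap, with a log2 fold change of 0.37 (SE 0.221, edgeR adjusted p = 0.473). Irf7, the inducible amplifier of interferon production, measured 2.68 and 1.39 CPM in untreated explants and 3.40 and 1.16 CPM with CCCP. Here the replicate 1 libraries were high and the replicate 2 libraries low in each group. The log2 fold change of Irf7 was 0.17 (SE 0.592), and it was -0.81 without CCCP replicate 1 and -0.19 without untreated replicate 2.

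Irf9 measured 21.0 and 18.2 CPM against 22.8 and 16.9 CPM, and Stat2 measured 29.7 and 23.1 CPM against 27.4 and 24.3 CPM. These partners in the complex that reads the interferon signal overlapped between groups and had log2 fold changes of 0.019 (SE 0.201) and -0.031 (SE 0.176). Removing a trend with exon length turned these values to -0.059 for Irf9 and 0.018 for Stat2. Irf9 was also at -0.21 without CCCP replicate 1 and -0.046 without untreated replicate 2, and Stat2 at 0.17 without untreated replicate 1 and 0.064 without CCCP replicate 2. The median of the 5 factors was 0.17, and it was -0.12 without CCCP replicate 1 and -0.046 without untreated replicate 2.

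**Figure D2:**
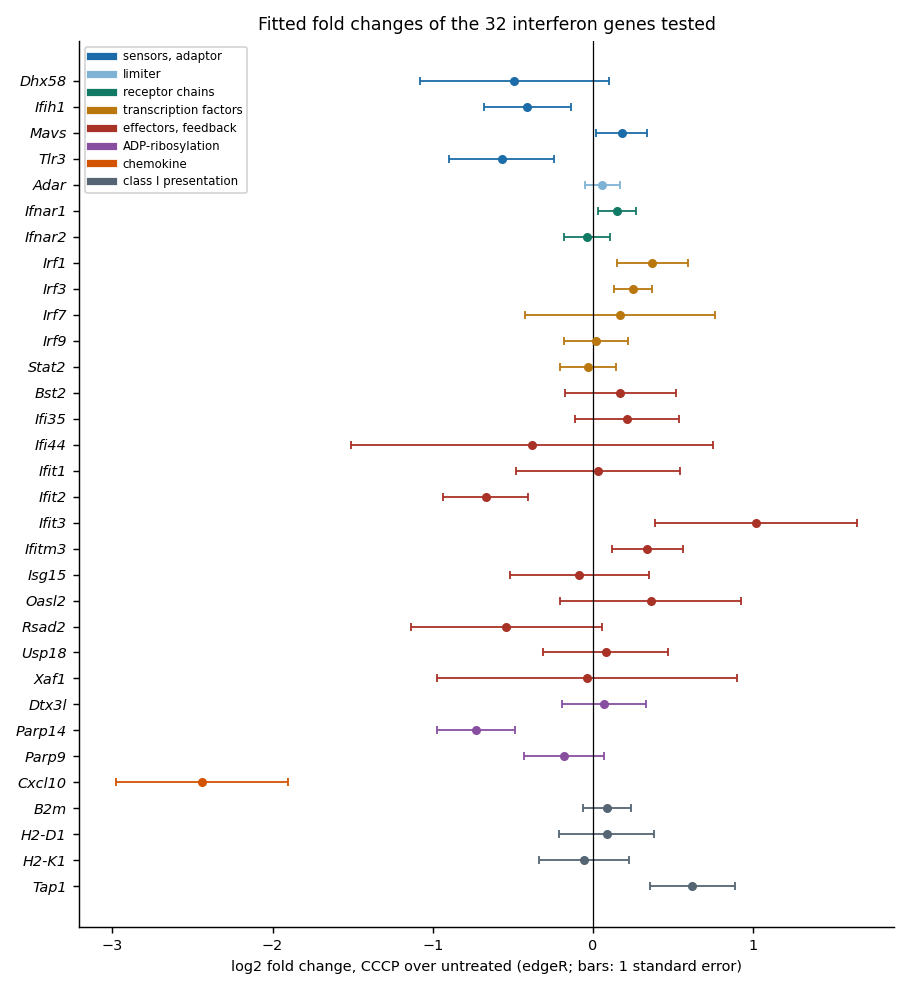
Fitted log2 fold change of each tested gene of the set, CCCP over untreated, by edgeR (horizontal), with bars of 1 standard error and colours for the role of the gene. The bars of Cxcl10, Parp14, Ifit2, Tlr3 and Ifih1 lie left of 0. Those of Ifit3, Tap1, Irf1, Ifitm3, Irf3, Mavs and Ifnar1 lie right of 0. The bars of Ifi44 and Xaf1 are the widest, and no gene passed the adjusted threshold of 0.05.

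Effectors and feedback genes, the products that act on virus or restrain the response, differed more between the libraries of a group than between the groups for 10 of the 12 tested (83.3%, all genes 63.9%), comparing the wider gap within a group with the gap between group means on log2 CPM. Of the 13 listed, 12 were tested, 7 with a fold change above 0 and 5 below, and a median of 0.057. The groups did not overlap for 2 of the 12 (16.7%), where 48.8% of all genes did not overlap. For 8 of the 12 (66.7%), the replicate 1 libraries of both groups lay above both replicate 2 libraries, a pattern shown by 18.4% of all genes. The effectors' median was -0.46 without CCCP replicate 1, -0.18 without untreated replicate 2, 0.48 without CCCP replicate 2 and 0.25 without untreated replicate 1, and -0.042 with the length trend removed.

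Ifit2, a tetratricopeptide protein that restrains translation of viral RNA, was the effector with the smallest p. It measured 6.31 and 7.43 CPM in untreated explants and 3.69 and 4.96 CPM with CCCP, without overlap. The log2 fold change was -0.67 (SE 0.267), with an unadjusted p of 0.0456 and an edgeR adjusted p of 0.335. Its relative Ifit3 lay the other way, with 10 and 8 counts against 17 and 18 counts and a log2 fold change of 1.02 (SE 0.631, edgeR adjusted p = 0.487). The count is uncertain, since 51.2% of the 50-base stretches of Ifit3 also occur in Ifit3b and reads that align to both were not counted. Ifit1, which binds RNA lacking the methylated cap of host transcripts, measured 1.38 and 0.829 CPM against 1.48 and 0.772 CPM. Its replicate 1 libraries matched each other and its replicate 2 libraries matched each other more closely than either pair of a group, and the log2 fold change was 0.033 (SE 0.513). Without CCCP replicate 1 the Ifit1 value was -0.51, without untreated replicate 2 it was -0.25, and it was -0.025 when libraries were scaled by total counts alone.

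Isg15, the ubiquitin-like protein conjugated to targets during the response, measured 1.94 and 1.26 CPM in untreated explants and 1.85 and 1.16 CPM with CCCP. Its 2 values within each group differed by more than the groups did, and the log2 fold change was -0.084 (SE 0.434, edgeR adjusted p = 0.944), or 0.28 without untreated replicate 1 and 0.22 without CCCP replicate 2. Usp18, which removes Isg15 and dampens the receptor, measured 2.14 and 2.06 CPM against 2.82 and 1.60 CPM, so the CCCP values lay on either side of the untreated ones. Its log2 fold change of 0.080 (SE 0.389) was -0.39 without CCCP replicate 1 and -0.054 with the length trend removed.

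The widest gaps between libraries of 1 group belonged to Ifi44 and Xaf1. Ifi44, a cytoplasmic protein induced by interferon, had 57 and 13 counts without treatment and 52 and 2 counts with CCCP. After scaling, CCCP replicate 1 was 19.4 times CCCP replicate 2, with an exact 95% counting interval of 5.12 to 165, and untreated replicate 1 was 3.28 times untreated replicate 2, with an interval of 1.77 to 6.52. These intervals cover counting error only and are too narrow where reads of a pair were counted singly. The fitted log2 fold change between groups was -0.38 with an SE of 1.13, and it was 0.74 without untreated replicate 1 and 0.52 without CCCP replicate 2. Xaf1, a promoter of cell death that is itself induced by interferon, measured 2.10 and 0.936 CPM in untreated explants and 2.66 and 0.276 CPM with CCCP. Replicate 1 was thus 2.24 times replicate 2 without treatment and 9.64 times with CCCP, while the log2 fold change between groups was -0.038 (SE 0.938), or 0.81 without CCCP replicate 2, 0.68 without untreated replicate 1 and 0.085 with the length trend removed.

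Rsad2 (viperin), an enzyme that makes a chain-terminating nucleotide, measured 4.65 and 3.61 CPM against 4.47 and 1.16 CPM. A single library, CCCP replicate 2, stood low, and without it the log2 fold change of -0.54 (SE 0.599) was 0.12. Oasl2, a relative of the oligoadenylate synthetases, measured 5.25 and 2.11 CPM against 6.65 and 2.81 CPM, about as far apart within each group (2.49 and 2.37 times). Its log2 fold change was 0.36 (SE 0.563), and it was -0.39 without CCCP replicate 1 and -0.11 without untreated replicate 2. Bst2 (tetherin), which holds budding virions at the cell surface, measured 14.3 and 13.3 CPM against 20.9 and 9.92 CPM. The untreated values were close and the CCCP values spread to both sides of them, with a log2 fold change of 0.17 (SE 0.346) that was -0.47 without CCCP replicate 1 and -0.031 with the length trend removed.

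Ifitm3, which blocks entry of virus from endosomes, measured 15.5 and 18.4 CPM against 25.2 and 17.6 CPM, with a log2 fold change of 0.34 (SE 0.224). Only CCCP replicate 1 stood above the rest, and without it the value was 0.059. It was 0.59 without CCCP replicate 2 and 0.14 with the length trend removed. Ifi35 measured 2.70 and 3.82 CPM against 3.23 and 4.33 CPM, with a log2 fold change of 0.21 (SE 0.325) that was -0.01 without untreated replicate 1 and -4.2e-05 without CCCP replicate 2. It was the 1 effector with both replicate 2 libraries above both replicate 1 libraries.

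**Figure D3:**
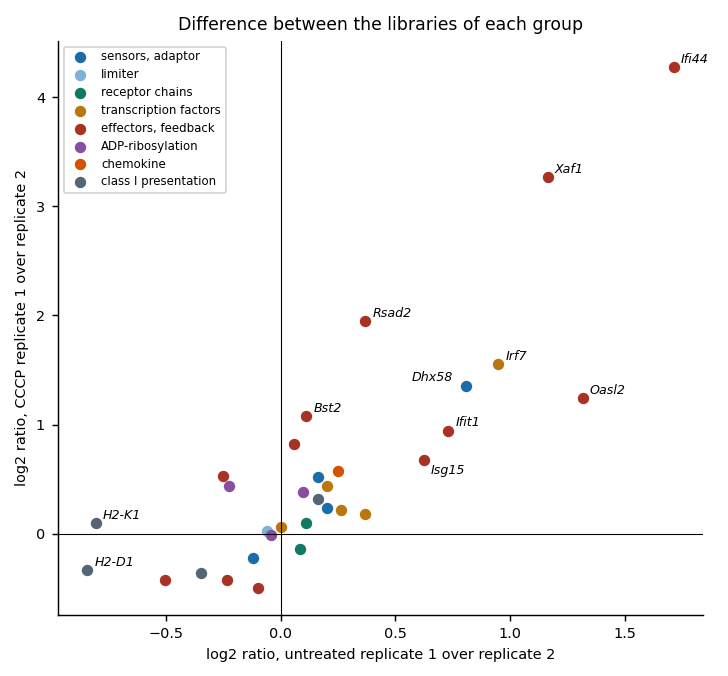
Log2 ratio of replicate 1 over replicate 2 in the untreated group (horizontal) and in the CCCP group (vertical) for each tested gene of the set, coloured by role. Ifi44, Xaf1, Irf7, Oasl2, Dhx58, Rsad2, Ifit1 and Isg15 lie in the upper right, where replicate 1 was higher in both groups, and H2-D1 is among the points at the lower left.

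Over the whole set, 14 of 32 genes (43.8%) had both replicate 1 libraries above both replicate 2 libraries, and 2 (6.25%) had the reverse. Over all genes these shares were 18.4% and 17.7%. CCCP replicate 1 was the highest library for 14 set genes (43.8%, all genes 20.4%), and CCCP replicate 2 was the lowest for 16 (50%, all genes 24.6%). The wider of the 2 gaps within a group exceeded the gap between group means for 22 of 32 set genes (68.8%), and for 63.9% of all genes. Among set genes tested, both replicate 1 libraries were above both replicate 2 libraries for 6 of the 10 with a response element core. The same held for 5 of the 18 with a promoter but no exact match (Irf7, Irf9, Oasl2, Ifi44 and Xaf1). Of the tested genes without a promoter sequence, Usp18, Dhx58 and Parp9 showed it and Parp14 did not. No label says what the replicate number marks.

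Library depth and some marker lists went with that pattern, which 18.4% of all genes showed, and other lists did not. Replicate 1 was the deeper library in both groups. The markers of kidney and gonad (Wt1, Pax2, Gata4, Nr5a1) were higher in both replicate 1 libraries for 4 of 4 genes, with summed levels of 98.7 and 59.5 CPM without treatment and 97.0 and 62.6 CPM with CCCP. Mesenchyme markers were higher in both replicate 1 libraries for 4 of 5 genes, with sums of 3810 and 2300 CPM against 3210 and 2630 CPM. Macrophage markers showed it for 4 of 11, with sums of 289 and 197 CPM against 281 and 283 CPM. Of 6 lymphoid markers 3 reached 10 counts in a library. Il7r, a cytokine receptor of lymphoid progenitors, had 49 and 10 counts without treatment and 43 and 8 with CCCP, and Rag1, a recombinase of developing lymphocytes, had 36 and 6 counts against 24 and 6. Both were higher in each replicate 1 library. Cd79a, a part of the B cell receptor, had 8 and 16 counts against 12 and 10. After scaling it was higher in each replicate 2 library, but only narrowly with CCCP (0.247 and 0.276 CPM). All 5 erythroid markers were highest in CCCP replicate 2, with sums of 1830 and 2090 CPM against 2070 and 3040 CPM. Both replicate 1 libraries were above both replicate 2 libraries for 0 of these 5, and below them for 2. Of the other markers tested, 0 of 7 endothelial, 0 of 6 hepatic, 0 of 3 neural crest and 1 of 6 blood markers were higher in both replicate 1 libraries. The part of these markers in the result was not tested. In bulk RNA, fewer cells of a type and less RNA per cell cannot be told apart.

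The ADP-ribosylation genes differed among themselves. Parp14, a mono-ADP-ribosyltransferase induced by interferon, measured 5.73 and 5.91 CPM in untreated explants and 3.50 and 3.53 CPM with CCCP. The values within each group nearly coincided and the groups were well apart, with a log2 fold change of -0.73 (SE 0.243), an unadjusted p of 0.0236 and an edgeR adjusted p of 0.284. With the length trend removed the value was -0.46. Parp9 and Dtx3l, which form a complex that joins ADP-ribosylation to ubiquitin, overlapped between groups. Parp9 measured 6.57 and 6.15 CPM against 6.37 and 4.88 CPM (log2 fold change -0.18, SE 0.249, and 0.01 without CCCP replicate 2). Dtx3l measured 5.41 and 6.34 CPM against 7.07 and 5.24 CPM (0.069, SE 0.262, and -0.16 without CCCP replicate 1, -0.03 without untreated replicate 1). These neighbours overlap on opposite strands over 8.5% of the exon bases of Parp9 and 6.45% of those of Dtx3l, and strand was not used in counting, so reads there could not be assigned to either gene. The median of the 3 genes, -0.18, was -0.38 without CCCP replicate 1 and 0.01 without CCCP replicate 2.

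Cxcl10, a chemokine that draws activated T cells and is induced by interferon gamma and by Irf3, had the largest fold change and the smallest p of the set. Its counts were 62 and 39 without treatment and 12 and 6 with CCCP, or 1.24 and 1.04 CPM against 0.247 and 0.165 CPM. Both CCCP values were far below both untreated ones. The summed CCCP level was 0.184 times the untreated one, with an exact 95% counting interval of 0.105 to 0.305. This interval, too, covers counting error only and is too narrow where reads of a pair were counted singly. The log2 fold change was -2.44 (SE 0.535), the unadjusted p 0.00371 and the edgeR adjusted p 0.194, so it did not pass, nor did it with DESeq2 (adjusted p = 0.0604). It passed when no filter on low counts was applied (edgeR adjusted p = 0.00837), a setting in which 3.43% of genes passed. It also passed with the replicate number as a block (edgeR adjusted p = 0.0184, where 10.7% of all genes passed), and with that block and the length trend removed (0.0266). Over the other settings with the group as the sole term its adjusted p reached 0.645, without CCCP replicate 2. The gene lies at chr5:92346638-92348889 on the minus strand, with no other gene over its exons. Cxcl10 had the response element at 213 bases shown above. Isg15, Ifit1 and Rsad2 held it at other distances, and their groups overlapped. Of the 10 tested set genes with a match, 3 had groups that did not overlap, where 48.8% of all genes did not. The same held for 8 of the 18 set genes with a promoter but no exact match. The 3 with a match were Cxcl10 and Ifih1, lower with CCCP, and Ifit3, higher with CCCP. The part of the element in these values was not tested.

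Of the class I presentation genes, Tap1 alone had groups that did not overlap. Tap1, a subunit of the transporter that loads peptides into the endoplasmic reticulum, measured 4.12 and 5.24 CPM in untreated explants and 6.30 and 8.10 CPM with CCCP. The log2 fold change was 0.62 (SE 0.266), with an unadjusted p of 0.057 and an edgeR adjusted p of 0.352. B2m, the light chain of class I molecules, measured 54.0 and 48.4 CPM against 60.5 and 48.4 CPM, with a log2 fold change of 0.089 (SE 0.150) that was -0.076 without CCCP replicate 1 and -0.12 with the length trend removed. For B2m, both replicate 2 libraries had the same level and CCCP replicate 1 was the highest. The heavy chains H2-K1 (11.4 and 19.9 CPM against 15.5 and 14.5 CPM) and H2-D1 (14.8 and 26.6 CPM against 19.5 and 24.5 CPM) were lowest in untreated replicate 1 and highest in untreated replicate 2. Their log2 fold changes were -0.055 (SE 0.282) and 0.085 (SE 0.296), and without untreated replicate 2 they were 0.43 and 0.60. Without CCCP replicate 2 they were 0.0025 and -0.080, without untreated replicate 1 H2-D1 was at -0.27, and with the length trend removed H2-K1 was at 0.058. Tap1, H2-K1 and H2-D1 are each annotated on 4 contigs, chromosome 17 and alternates, and share 0.647%, 8.11% and 14.3% of their 50-base stretches with other genes, so reads that align in several places were not counted and these levels are uncertain. The median of the 4 genes, 0.087 with all libraries, became 0.51 when untreated replicate 2 was left out and -0.045 when untreated replicate 1 was.

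**Figure D4:**
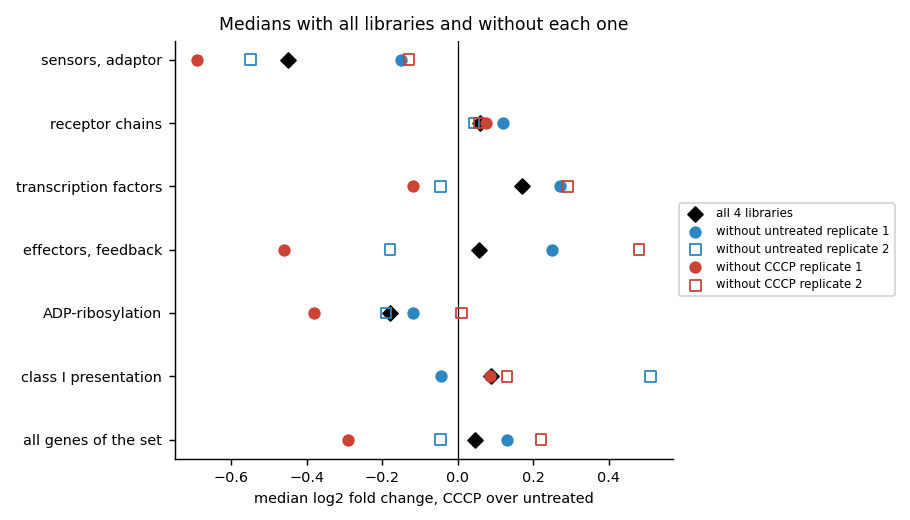
Median log2 fold change of the set and of each role with more than 1 tested gene (horizontal), with all libraries (diamonds) and without each library in turn (circles and squares). The effectors run from -0.46 to 0.48 and the transcription factors from -0.12 to 0.29, across 0, and the sensors stay between -0.69 and -0.13.

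The interferons themselves were at the limit of detection. Of 15 interferon genes (type I, II and III), 11 had 0 counts in all 4 libraries, among them Ifnb1, Ifng, Ifnl2 and Ifnl3. The others, Ifnab, Ifne, Ifnk and Ifnz, had at most 2 counts in a library. A count of 3 equals 0.0614 to 0.0803 CPM, so levels under that were not detectable at this depth.

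The other genes of the pathway, from lists chosen with earlier results of these data known, were read in the same fit. Of 96 tested, 0 had an adjusted p under 0.05 by edgeR and 10 an unadjusted p under 0.05 (5 in each direction, together 10 of 96 where all genes gave 14.6%). DESeq2 called 1 of the 96, Samd9l, and 2.99% of all genes. Among 26 further sensors, adaptors and kinases, 13 lay above 0 and 13 below, with a median of -0.015. Ddx58 (RIG-I), a helicase that senses viral RNA, was added here after its value was seen. It measured 14.6 and 12 CPM against 15.6 and 14.2 CPM, with overlapping groups (log2 fold change 0.17, SE 0.19). Eif2ak2 (PKR), the kinase that halts translation on double-stranded RNA, measured 24.1 and 20.7 CPM against 16.4 and 14.4 CPM (log2 fold change -0.54, SE 0.173, edgeR adjusted p = 0.272). It was lower in each CCCP library than in each untreated one, like Ifih1 and Tlr3 of the set. Rnaseh2c, a subunit of the enzyme that removes RNA from RNA-DNA hybrids, lay the other way, at 26.4 and 30.2 CPM against 35.6 and 45.7 CPM (0.52, SE 0.169, edgeR adjusted p = 0.276). Pnpt1, which degrades RNA in mitochondria and was added here after its value was seen, measured 41.0 and 50.9 CPM against 31.8 and 37.9 CPM (-0.40, SE 0.163, edgeR adjusted p = 0.342).

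Among 13 further receptor, JAK-STAT and IRF genes, 11 lay above 0, with a median of 0.25, and the CCCP libraries were above the untreated ones for 8 (all genes 24%) and below for 2 (all genes 24.8%). Jak2, a kinase of the interferon gamma receptor and of many cytokine receptors, was 1 of those 2, at 74.3 and 57.2 CPM against 46.3 and 52.5 CPM (log2 fold change -0.41, SE 0.162, unadjusted p = 0.0429, edgeR adjusted p = 0.329). Ifngr2, a chain of the interferon gamma receptor, measured 33.4 and 34.5 CPM against 42.1 and 39.7 CPM (0.27, SE 0.121), and the feedback inhibitor Socs3 measured 15.7 and 14.0 CPM against 18.8 and 18.3 CPM (0.32, SE 0.165). None of the 13 passed the adjusted threshold.

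Among 44 further interferon-stimulated genes, 29 lay below 0 and 15 above, with a median of -0.15. The CCCP libraries were below both untreated ones for 20 (all genes 24.8%) and above for 7 (all genes 24%), and CCCP replicate 2 was the lowest library for 23 (52.3%, all genes 24.6%). Samd9l, a restrictor of translation and cell growth, measured 2.72 and 2.35 CPM against 0.886 and 0.496 CPM, a log2 fold change of -1.86 (SE 0.430, unadjusted p = 0.00473, edgeR adjusted p = 0.204). Ly6a (Sca-1), a surface protein used to mark mouse stem cells, had 2 counts in each untreated library and 22 and 21 counts with CCCP. The edgeR adjusted p was 0.195. The summed ratio was 11.1, with an exact 95% counting interval of 4.03 to 42.5. That interval rests on 4 untreated counts, covers counting error only and is too narrow where reads of a pair were counted singly. Ifitm2, a neighbour of Ifitm3 with a like function, measured 86.1 and 95.6 CPM against 115 and 129 CPM (log2 fold change 0.43, SE 0.125, edgeR adjusted p = 0.257). Psme1 and Psme2, the proteasome activator subunits, named after their values were seen, had log2 fold changes of 0.31 (SE 0.118) and 0.43 (SE 0.165), both higher in each CCCP library. Among 13 further class I presentation genes the median was 0.13, and the smallest p belonged to Psmb9, an immunoproteasome subunit next to Tap1, with 9 and 8 counts against 19 and 23 counts (1.37, SE 0.637, edgeR adjusted p = 0.38). It was followed by H2-M3 (0.69, SE 0.395) and H2-T22 (0.51, SE 0.343).

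**Figure D5:**
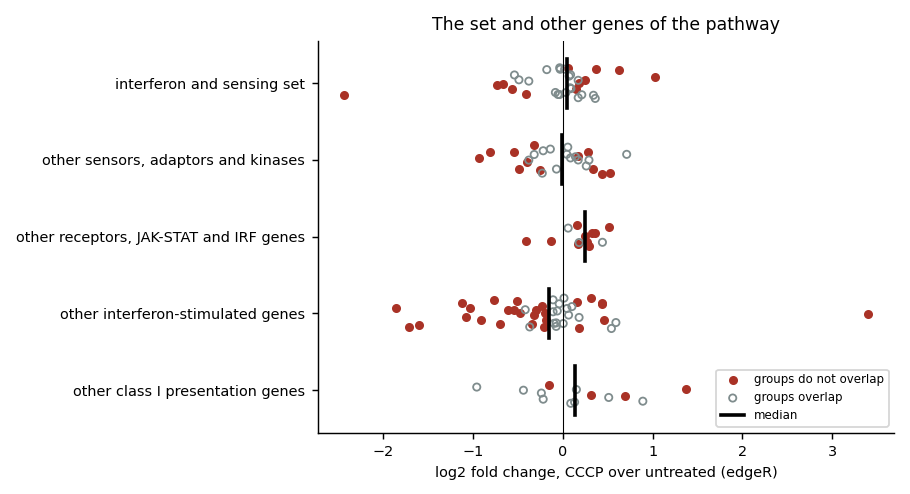
Log2 fold change, CCCP over untreated, of each tested gene (horizontal) in the set and in 4 further lists of the pathway, with filled points where the groups do not overlap, open points where they do, and a bar at the median. Cxcl10 is the leftmost point of the set, and the medians are 0.046, -0.015, 0.25, -0.15 and 0.13 from top to bottom.

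The libraries were also read for the cells they hold. Kit, which defines the labelled cells, measured 51.3 and 63.2 CPM without treatment and 47.6 and 51.7 CPM with CCCP, whereas the pan-leukocyte gene Ptprc measured 6.85 and 6.82 CPM against 3.65 and 3.39 CPM. Markers of cell types other than the labelled stem cells were present, with mesenchyme genes summing to between 2300 and 3810 CPM in each library. Hepatic genes summed to 1330 and 788 CPM without treatment and to 3.46 and 62.1 CPM with CCCP. Blood markers summed to 115 and 112 CPM against 79.1 and 97.9 CPM, with 6 of 6 tested genes below 0. The groups did not overlap for 2 of these 6 (33.3%, all genes 48.8%). Gfi1, a blood marker that was not tested, lay the other way, with 10 and 4 counts against 12 and 8 counts. Of 11 macrophage markers, 6 lay above 0 and 5 below. The groups did not overlap for 3 of the 11 (27.3%), all higher with CCCP. Siglech, a gene of plasmacytoid dendritic cells, the main source of interferon in adult blood, had 6 to 23 counts. The part of cell makeup in the values of the set was not tested.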

How the data were processed

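Poly(A) RNA of 4 AGM explant libraries was analysed, 2 untreated and 2 with CCCP, grouped by sample title. Per the file headers, the authors counted reads over mm10 RefSeq exons with featureCounts 2.0.3 and deposited the raw counts, without using strand (the labels name a directional kit). Without a fragment option both reads of a pair count singly, and 64.3% to 66.6% of counts from 1 to 10 were even. Multi-mapping reads and reads touching more than 1 gene were not counted. The submitters' processing notes name FastQC, HISAT2, SAMtools and Subread, and the build mm10. The deposited exon length of a gene sums all its contigs (2057 genes, 4.11%, lie on more than 1). The header of untreated replicate 1 differs by a letter from its sample's title, so the record of the file decided.

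edgeR 4.0.16 in R 4.3.3 was fitted to all 4 libraries with the group as the sole term (glmQLFit, glmQLFTest, TMM factors 0.966 to 1.04, filterByExpr with minimum count 10 and total 15), two-sided, with Benjamini-Hochberg adjustment over 19837 genes at 0.05. The smallest adjusted p was 0.122 and the biological coefficient of variation 21.9%. Standard errors were derived from the log2 fold change and the F statistic. With 2 libraries a group, an exact permutation test cannot go below 0.333 and was not used. Scripts were tested on simulated data with less spread between replicates than these libraries, which does not measure the power of the tests here. Alternatives used DESeq2 1.42.0, limma 3.58.1, other scalings, filters and designs, and each library left out. The set, its roles and all lists were chosen with earlier results of these data known. Per-library values were given for genes whose groups did not overlap, the 2 smallest p-values per role and defining genes of the pathway, and for the rest where libraries differed. From each further list up to 3 genes with the smallest p were named, and some genes are not reported here. All 49997 symbols matched the RefSeq table of GRCm38.p6. Promoters were found for 29 of 35 genes.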

Additional observations from a re-analysis of the deposited data

How the results depend on the processing

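The number of genes of the whole table with an adjusted p under 0.05 was 0 in 7 of 16 alternatives. Among them were limma-trend, RLE scaling, no scaling factor, the fit without mitochondrial and globin genes, the CPM filter and the removal of the length trend. The number was 594 (2.99%) with DESeq2 and 1107 (3.43%) with no filter on low counts, where 1 gene of the set, Cxcl10, passed. Leaving out a library gave 10 to 46 genes (10 without untreated replicate 1, 46 without untreated replicate 2, 27 without CCCP replicate 1, 35 without CCCP replicate 2) and 0 of the set each time. In those fits the lone library of a group is assumed to vary like the other group. The receptor median was -0.00031 with no scaling factor and 0.12 with the length trend removed. Without each library in turn, medians ran from -0.29 to 0.22 for the set, -0.69 to -0.13 for sensors, 0.043 to 0.12 for receptors, -0.12 to 0.29 for factors, -0.46 to 0.48 for effectors, -0.38 to 0.01 for ADP-ribosylation and -0.045 to 0.51 for class I genes.

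Over 11 other fits, 20 of 351 fold changes of set genes changed sign, in 9 genes, and over the fits without a library 32 of 128 did, in 19 genes. By setting, no scaling factor gave -0.025 for Ifit1 and -0.038 for Irf9, and the CPM filter gave -0.0033 for Irf9 and left out Ifit3. Removing the length trend gave Ifit1 -0.053, Irf9 -0.059, Stat2 0.018, Usp18 -0.054, Bst2 -0.031, B2m -0.12, H2-K1 0.058 and Xaf1 0.085. The ranges without a library were Isg15 -0.46 to 0.28, Ifit1 -0.51 to 0.46, Irf7 -0.81 to 0.74, Irf9 -0.21 to 0.23, Stat2 -0.17 to 0.17, Oasl2 -0.39 to 1.18, Usp18 -0.39 to 0.44, Rsad2 -1.83 to 0.12, Ifi44 -3.69 to 0.74, Bst2 -0.47 to 0.61, Dhx58 -1.32 to 0.025, Parp9 -0.38 to 0.01, Dtx3l -0.16 to 0.28, Ifi35 -0.01 to 0.52, B2m -0.076 to 0.25, H2-K1 -0.39 to 0.43, H2-D1 -0.27 to 0.60, Xaf1 -2.45 to 0.81, Ifnar2 -0.10 to 0.039. The cause was not tested.

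With the replicate number as a block, edgeR called 2118 genes (10.7%) and 1 gene of the set, Cxcl10 (log2 fold change -2.45, adjusted p = 0.0184, with 0.00837 to 0.645 over all its alternatives), and 10 of the 96 further pathway genes. The block with the length trend removed called 1257 genes and 2 of the set, Cxcl10 (-2.64, adjusted p = 0.0266) and Tap1 (0.92, adjusted p = 0.0329, with 0.0329 to 0.909 over all its alternatives), where the receptor median was 0.12. The deposited length of Tap1 sums 4 contigs (11800 bases, of which 2950 on chromosome 17), so this correction placed it among longer genes than it is. That fit reversed Ifit1 (-0.070), Irf7 (-0.056), Irf9 (-0.068), Stat2 (0.024), Usp18 (-0.10), Bst2 (-0.13), B2m (-0.13) and H2-K1 (0.12). DESeq2 with the block called 1366 of the 19837 genes and 0 of the set, with H2-K1 at 0.0026 and no adjusted p for Cxcl10. Deviations of same-numbered libraries from their group means correlated at 0.36 over 19837 genes, but there are only 2 pairs and no label says what a number marks, so the numbers were not taken to pair the samples.

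Depth limits what can be read for low genes. Cxcl10, Ifit3, Mx1, Zbp1 and the interferons rest on at most 62 counts in a library, and 2 libraries a group leave standard errors as wide as 1.13 (Ifi44).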
